A study of Homo sapiens with 6 samples.

Results

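Common fragile sites are stretches of the genome that break or fail to condense when replication is slowed, and many of them lie inside very long genes. The genes described here are 9 such genes, FHIT, WWOX, IMMP2L, MACROD2, LRP1B, CSMD1, LSAMP, CNTNAP2 and DLG2, taken by name from 63827 annotated genes on chromosomes 1 to 22 and X. All 9 were found in the annotation, and each was read over its body and 100 kb on either side. Fragility at these loci is usually linked to few replication origins and to collisions of replication with transcription. Camptothecin (CPT) traps DNA topoisomerase I on nicked DNA, and a nick met by a replication fork or a second nick can become a double-strand break (DSB).

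END-seq, which ligates an adapter to blunted DNA ends in agarose-embedded cells and sequences outward from each end, was performed on HCT116, a human colorectal carcinoma cell line. Cells were untreated (Ctrl) or received 10 µM CPT for 10 min (CPT10) or 20 min (CPT20), with 2 libraries per group, and mouse pre-B cells were added as a spike-in. The sample titles write the treatments as 2 doses, whereas the treatment protocol gives 1 dose and 2 times, which was followed here. Peak lists were analysed for the 4 treated libraries, each with a forward list (reads running to the right of a break) and a reverse list (reads running to the left), and no peak list of the Ctrl libraries was used. Ctrl reads entered as the input when the authors called peaks, with the local background switched off, so the counts of peaks below are levels in treated cells and were not compared with counts in untreated cells. The 8 lists held 4257149 peaks, of which 22625 lay in the 9 windows. CPT20 replicate 2 was the shortest pair of lists, with 573511 peaks against 1415310 in CPT10 replicate 1, so each value was set against its own library.

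FHIT encodes a diadenosine triphosphate hydrolase, lies at the fragile site FRA3B, and runs on the minus strand of chromosome 3 from 59733003 to 61237133 (GRCh37, the build of the peak lists). WWOX, a WW-domain oxidoreductase at FRA16D, occupies 78133297 to 79246564 on the plus strand of chromosome 16. IMMP2L, a subunit of a mitochondrial inner membrane peptidase, is the shortest body at 900 kb, and CNTNAP2, a neurexin-family adhesion protein, is the longest at 2305 kb. The remaining genes encode a mono-ADP-ribosylhydrolase (MACROD2), a lipoprotein receptor family member (LRP1B), a complement-regulating membrane protein (CSMD1), a neuronal adhesion protein (LSAMP) and a synaptic scaffold (DLG2). GC content of the bodies ranged from 34.8% in LRP1B to 42.6% in WWOX.

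Reproducible paired sites were few in these windows. A site was a reverse peak followed by a forward peak that overlapped it or lay less than 150 bp downstream. Among non-overlapping neighbours this close in the windows, reverse then forward occurred 134, 78, 65 and 26 times (CPT10 pair, then CPT20 pair). The opposite order occurred 137, 68, 70 and 26 times, so the order of a break was not clearly the commoner one. A cluster was a site found in both replicates of a time. The windows held 11 of 5611 such clusters, and the bodies alone held 4, which is 0.261 per Mb against 1.98 per Mb over the genome. Unlike in the study, blacklisted genome regions were not left out and clusters were not tested against control. This holds for the windows and for the genome. The sequences of 2 clusters are shown because they mark the best ranked sites of LRP1B and WWOX and differ in base composition. Each is the central 300 bases on the plus strand of GRCh37, and capitals mark G and C. The LRP1B cluster is intronic, at chr2:142311420-142311719, and the WWOX cluster lies in the downstream flank, at chr16:79291127-79291426.
LRP1B: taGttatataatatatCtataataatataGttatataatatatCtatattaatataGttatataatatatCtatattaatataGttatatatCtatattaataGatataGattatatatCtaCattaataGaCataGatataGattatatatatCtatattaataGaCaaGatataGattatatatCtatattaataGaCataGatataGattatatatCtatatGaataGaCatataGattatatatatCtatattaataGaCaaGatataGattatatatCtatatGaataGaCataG
WWOX: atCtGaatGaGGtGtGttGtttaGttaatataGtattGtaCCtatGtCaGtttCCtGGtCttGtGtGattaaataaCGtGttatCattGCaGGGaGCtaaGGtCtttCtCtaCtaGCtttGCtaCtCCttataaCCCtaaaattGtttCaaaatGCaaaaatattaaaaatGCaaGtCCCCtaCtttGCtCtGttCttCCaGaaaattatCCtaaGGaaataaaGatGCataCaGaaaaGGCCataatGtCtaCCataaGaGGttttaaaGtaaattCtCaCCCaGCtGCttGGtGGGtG

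The LRP1B sequence is an AT-rich tandem repeat with 41 G or C among 300 bases (13.7%), whereas the WWOX sequence held 107 (35.7%). The LRP1B site was found at 10 min only, with a −log10 q of 1.85 in CPT10 replicate 1 and 2.93 in CPT10 replicate 2. Its heights were thus near the calling threshold in one library. The WWOX site had 7.30 and 2.95 in the CPT10 libraries and none in the CPT20 libraries.

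4 members carried a replicated cluster in the body (DLG2, LRP1B, LSAMP and WWOX), beside 25.5% of the 824 protein-coding genes of at least 300 kb. None of the 9 carried a cluster replicated at both times in the body, beside 1.82% of those genes. These shares are not matched for length, since the 9 bodies, at 900 to 2305 kb, are longer than most of the 824 genes. The single cluster of the windows that was present at both times lay 35.3 kb upstream of the DLG2 5′ end, within CREBZF, at 85373545 to 85375885 on chromosome 11. Its −log10 q was 9.13 and 6.45 in the CPT10 libraries and 11.98 and 6.70 in the CPT20 libraries. FHIT, MACROD2 and CNTNAP2 windows held no replicated cluster. Of the 11 clusters, 9 were replicated at 10 min only, 1 at both times and 1 at 20 min only, beside 2889, 855 and 1867 of the 5611 clusters of the genome. Of those 9, 2 also had a site in CPT20 replicate 1 alone. The 9 became 2 at a −log10 q of at least 3 or with lists of equal length, and at a −log10 q of at least 10 no cluster was left in the windows.

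The windows, 0.605% of the gap-free genome, held 462 sites in CPT10 replicate 1, 282 in CPT10 replicate 2, 245 in CPT20 replicate 1 and 83 in CPT20 replicate 2. Per Mb these were 26.9, 16.4, 14.3 and 4.84, against 36.0, 19.2, 30.1 and 6.56 over the genome, so the windows lay below the genome in each library. Per 1000 sites of the library they were 4.52, 5.18, 2.87 and 4.46. CPT20 replicate 1 was the low library, and the other CPT20 library lay just under the CPT10 pair. The log2 ratio of 20 over 10 min was −0.43 (exact permutation test, two-sided, p = 0.33, the smallest p that 4 libraries allow), so a change with time could not be shown at this size.

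Peak density was called lower than the library mean in 4 of the 9 bodies. In FHIT the observed number of peaks over that given by the library's mean density was 0.779 and 0.704 in the CPT10 libraries and 0.673 and 0.703 in the CPT20 libraries. All 4 libraries lay below 1, and the lower CPT10 value (0.704) lay next to the higher CPT20 value (0.703). The log2 density of FHIT was −0.49 ± 0.08 (SE), with an adjusted p of 0.000121 (limma, Benjamini-Hochberg over 3660 protein-coding genes of at least 100 kb). WWOX had ratios of 0.866, 0.816, 0.679 and 0.764 in the same order of libraries, and its log2 density was −0.36 ± 0.08 (adjusted p = 0.00173, limma). CSMD1 had 0.804, 0.863, 0.644 and 0.807 (log2 −0.37 ± 0.09, adjusted p = 0.00421, limma), and LRP1B had 0.850, 0.881, 0.758 and 0.794 (log2 −0.29 ± 0.08, adjusted p = 0.0145, limma). These 4 genes and MACROD2 (0.889, 0.922, 0.796 and 0.920) were below 1 in every library.

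The background to this count is 12.5% of all genes of at least 100 kb called lower, and 25.4% of the genes of at least 300 kb in a fit of those alone, while 18% of the former were called higher. The share in the longer genes is the nearer reference for these bodies. None of the 9 was called higher. MACROD2 (log2 −0.18), LSAMP (−0.13), CNTNAP2 (−0.07), DLG2 (−0.05) and IMMP2L (0.06) did not pass the test. With the replicate number as a block MACROD2 was called too (adjusted p = 0.0386, limma). Set against 1 Mb on either side of each window in place of the library mean, CNTNAP2 was called (log2 −0.26, adjusted p = 0.00895, limma). WWOX was then at −0.63 and CSMD1 at −0.16, and the 4 genes stayed called. The 1 Mb stretches at lower and higher coordinates were themselves at 1.01 and 1.26 of the mean density for CNTNAP2. They were at 0.866 and 1.52 for WWOX and at 0.886 and 0.822 for CSMD1. IMMP2L had the highest ratios, 1.01, 1.07, 0.918 and 1.19, and it and LSAMP spread most between the CPT20 replicates. Neighbours in the order of mean density from FHIT (0.715 ± 0.045, SD, n = 4) through CSMD1 (0.780 ± 0.095) and WWOX (0.781 ± 0.080) to LRP1B (0.821 ± 0.055) differed by less than the larger SD of each pair. The median log2 density was −0.18 over the 9 genes, −0.10 over the genes of at least 300 kb and −0.02 over all genes tested. Of 16 other long fragile-site genes, 5 were called lower and none higher. Among these 5, DMD and IL1RAPL1 lie on chromosome X, at mean ratios of 0.362 and 0.374. The 1 Mb stretches beyond their windows were at 0.376 and 0.396 for DMD and 0.389 and 0.372 for IL1RAPL1. With CPT10 replicate 1 or CPT10 replicate 2 left out, FHIT alone was called, and without CPT20 replicate 2 the count was 7.

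**Figure D1:**
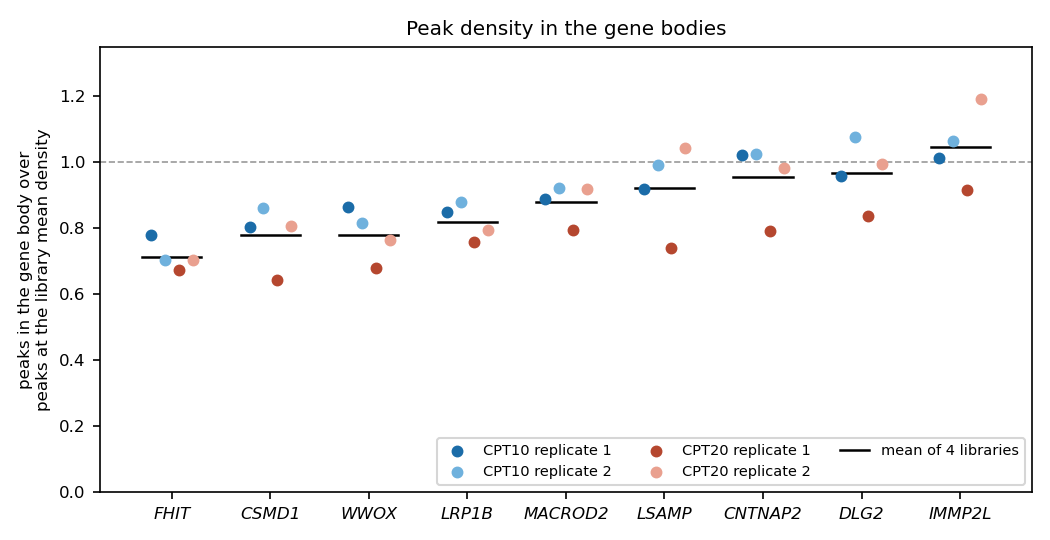
Peaks in each gene body over the number given by the library's mean density (y axis, ratio), for the 9 genes in order of their mean (x axis). Points are the 4 libraries and lines their mean, and FHIT, CSMD1, WWOX, LRP1B and MACROD2 lie below 1 in each library, with FHIT between 0.673 and 0.779.

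The thin density was not spread evenly in 3 of these genes. Bodies and flanks were divided into segments of 10 kb bins on the replicate 1 lists. The segments were then read in the replicate 2 lists, which had no part in placing their borders. The low stretches had been seen before this division was added, so the replicate 2 values are no independent test. LRP1B held a low segment of 480 kb, from 141708992 to 142188991, with exons 4 to 19 of its 91 canonical exons. Peak density there was 18.3 and 17.1 per 100 kb at 10 min and 15.2 and 6.04 at 20 min, against 51.1, 37.9, 38.7 and 19.5 in the reference segments of the window. In the replicate 2 lists the ratio was 0.403 (95% exact interval 0.328 to 0.491), an interval that covers counting error only. Outside the segment the body of LRP1B was at 0.973 ± 0.059 (SD, n = 4) of the library mean. In FHIT and WWOX, described next, the body outside the low and high segments was at 0.771 ± 0.040 and 0.823 ± 0.150. The FHIT remainder still held the sparse 440 kb described below. The WWOX remainder, 330 kb, was at 0.953 and 0.950 in the CPT10 libraries and 0.670 and 0.719 in the CPT20 libraries.

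WWOX held a low segment of 420 kb from 78253297 to 78673296, with exons 6 to 8 of 9, where the replicate 2 ratio was 0.415 (0.319 to 0.536). The next 50 kb held 1 peak in all 8 lists, in CPT10 replicate 2. Toward the 3′ end the density then rose, and the segment from 78933297 to 79343296 reached a replicate 2 ratio of 1.66 (1.39 to 1.98). Its downstream flank was at 1.43 of the mean density. The 1 Mb beyond the window was at 1.52 on the 3′ side and 0.866 on the 5′ side. WWOX therefore combined a sparse stretch, 120 to 590 kb from its 5′ end, with a dense 3′ end in both replicates. The raised density was not confined to the gene.

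FHIT held a low segment of 170 kb from 60223003 to 60393002, where the replicate 2 ratio was 0.365 (0.245 to 0.524). The neighbouring 440 kb toward the 5′ end was at 0.577 (0.472 to 0.701) in the same lists, though it was not low by the threshold of 0.6 in replicate 1. No canonical exon of FHIT lies in the 170 kb segment and exons 4 and 5 lie in the neighbouring one. Low segments were found in 3 of the 9 genes, beside 0.971% of 824 genes of at least 300 kb, and in 3 of the 16 other fragile-site genes. The 0.971% is not matched for length, since the 9 bodies, at 900 to 2305 kb, are longer than most of the 824 genes. The description by segments was added after the low stretches had been seen. With a penalty of 5 for new segments MACROD2 and DLG2 were added. On all 8 lists together or on the CPT20 lists alone DLG2 was added, which made 4 members. With a penalty of 20 or on the CPT10 lists alone FHIT had no low segment, which left WWOX and LRP1B.

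**Figure D2:**
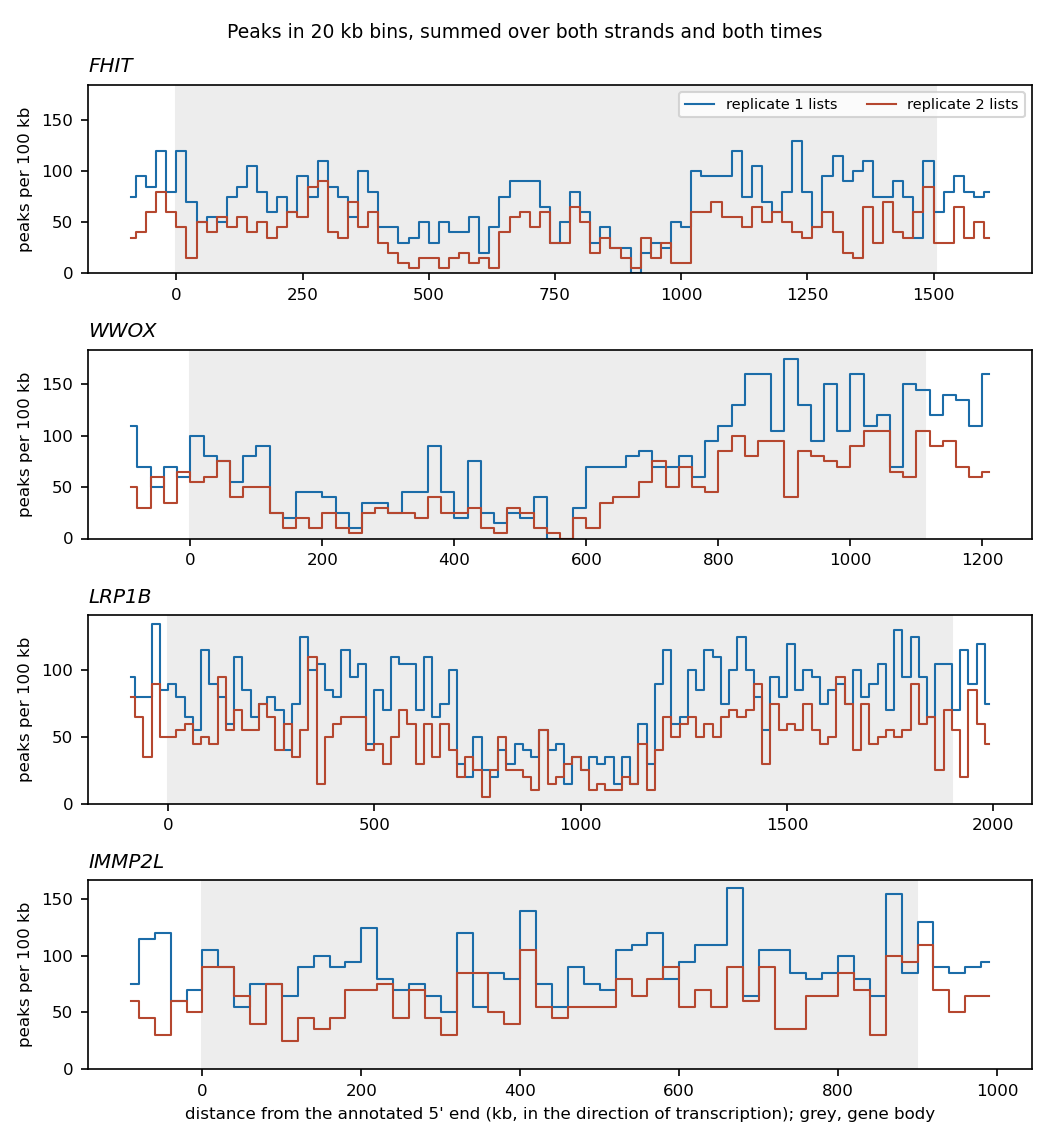
Peaks per 100 kb in 20 kb bins (y axis) by distance from the annotated 5′ end in kb (x axis), summed over strands and times for the replicate 1 and replicate 2 lists, with the body in grey. LRP1B, WWOX and FHIT each show a stretch where both lines fall together, and IMMP2L, shown for comparison, has no low segment.

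The longest stretch without a summit in any of the 8 lists was 51.6 kb in WWOX, 540 kb from the 5′ end, and 23.1 kb in FHIT, 894 kb from the 5′ end. In the other 7 genes it was 6.87 to 10.9 kb, and the median over genes of at least 300 kb was 5.17 kb. Stretches of at least 20 kb occurred in 1.09% of all genes of at least 100 kb and in 1.33% of the genes of at least 300 kb. Read coverage of the Ctrl libraries was not used here, so the low stretches could not be set against background coverage. DNA copy number along these bodies was not measured here, and its part in the low stretches was not tested.

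No member was called at its 5′ end, the part of a gene where paused and early elongating polymerase is found. In the first 5 kb the 9 genes held 71 peaks over the 4 libraries, against 58.6 given by the rest of their bodies. The ratio was 1.21 (95% exact Poisson interval 0.946 to 1.53), an interval that covers counting error only. FHIT had 4, 2, 2 and 0 peaks, LSAMP 3, 5, 2 and 1, and CNTNAP2 1, 1, 2 and 0, given for the CPT10 pair and then the CPT20 pair. The count of 0 of 9 (limma) stands beside 0.137% of 3660 genes called higher and 0.219% lower, and no member reached an unadjusted p under 0.05. The log2 ratios ran from −0.78 in CNTNAP2 to 0.44 in LSAMP, whose canonical 5′ end lies 694 kb inside the outermost one used here and gave −0.42. With so few peaks per library a moderate difference at a single 5′ end was not detectable.

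Split by strand, the list running with transcription held 30 peaks in the first 5 kb against 31.8 from the rest of the bodies, and the list running against transcription held 41 against 26.8. WWOX had no peak with transcription in any library, and 3, 1, 1 and 2 peaks against it. CSMD1 was the opposite, with 3, 1, 2 and 1 peaks with transcription and 0, 0, 2 and 0 against. The log2 strand difference was −2.05 ± 0.62 (SE) in WWOX, adjusted p = 0.216 (limma), and 1.26 ± 0.63 in CSMD1, adjusted p = 0.384 (limma). None of 3660 genes was called (0%), 500 had an unadjusted p under 0.05, and WWOX was the one such member. The median over all genes was −0.33. The number given by the rest of the body does not allow for a strand balance that changes along it. In the 5′ section of WWOX, 1 of 3 of equal length, 29, 25, 17 and 3 peaks ran with transcription. Against it ran 90, 61, 49 and 26 (CPT10 pair, then CPT20 pair).

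**Figure D3:**
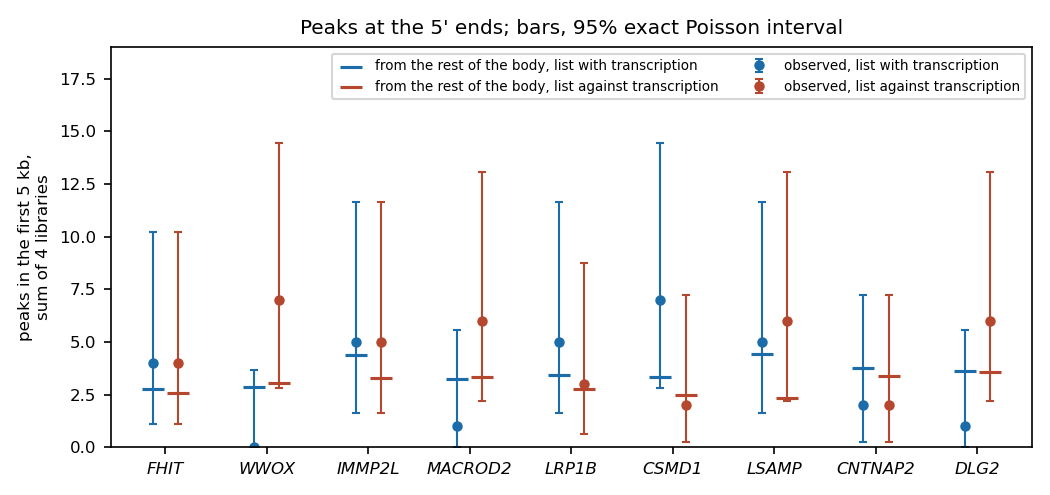
Peaks in the first 5 kb of each gene summed over 4 libraries (y axis), by gene (x axis), for the lists running with and against transcription. Points are observed counts with 95% exact Poisson intervals and dashes the number given by the rest of the body; WWOX has 0 peaks with and 7 against transcription.

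Strand balance changed along most of the bodies. The ratio of forward to reverse peaks was compared between the side of the body with higher and the side with lower coordinates, as a log2 difference, here called the strand shift. This measure was added after the profiles of FHIT and WWOX had been seen, so their values are no independent test. FHIT had a shift of 1.63 and 1.67 at 10 min and of 2.11 and 3.10 at 20 min. WWOX had 1.5, 1.80, 2.02 and 2.93, and IMMP2L had 1.55, 2.07, 1.47 and 2.80. The values of CPT20 replicate 2, the shortest lists, were the highest in all 3 genes, and the median over genes of at least 300 kb was also highest there, at 1.02 against 0.48 to 0.60 in the other libraries.

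In FHIT, WWOX, IMMP2L and DLG2 the 5′ part was rich in peaks against transcription and the 3′ part in peaks with it. By its definition the strand shift keeps its sign whichever strand a gene lies on. The bodies were next cut into a 5′, a middle and a 3′ section of equal length. In the 5′ section of WWOX the log2 ratio of peaks with over against transcription, set to 0 at the library's own ratio, was −1.13, −1.28, −1.5 and −2.93, and in the 3′ section 0.52, 0.73, 0.68 and 0.79. DLG2 moved from a mean of −1.19 ± 0.47 (SD, n = 4) to 1.14 ± 0.55 and FHIT from −1.35 ± 0.76 to 1.25 ± 0.32. LSAMP was above 0 in the mean in each part and reached 1.76 ± 0.71 in its 3′ section. CNTNAP2 moved from −0.12 ± 0.30 to 0.97 ± 0.50. In MACROD2, LRP1B and CSMD1 the section means stayed between −0.20 and 0.47.

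6 members had a strand shift called higher than 0 (limma): FHIT (2.13), WWOX (2.06), IMMP2L (1.97), DLG2 (1.67), LSAMP (1.21) and CNTNAP2 (0.73). Adjusted p-values ran from 0.00188 to 0.0496 in these 6 (limma). LRP1B (0.35), CSMD1 (0.29) and MACROD2 (0.23) did not pass. Beside this, 19.1% of 3660 genes were called higher and, in a fit of genes of at least 300 kb, 51.6% higher and 2.92% lower, so a shift of this direction is the common state of long genes. The shift was above 0 in all 4 libraries in 8 of the 9 genes, MACROD2 being the exception. It was so in 60.8% of the genes of at least 300 kb. Shares and medians here are not matched for length, since the 9 bodies, at 900 to 2305 kb, are longer than most such genes. Among 824 such genes FHIT, WWOX and IMMP2L ranked 17, 22 and 30 by size, and MACROD2 616. The median was 1.21 over the 9 genes, 0.68 over genes of at least 300 kb, 0.44 over all genes and 0.60 over the 16 other fragile-site genes, of which 7 were called. Without CPT10 replicate 1 or CPT10 replicate 2, FHIT, WWOX and IMMP2L were called.

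**Figure D4:**
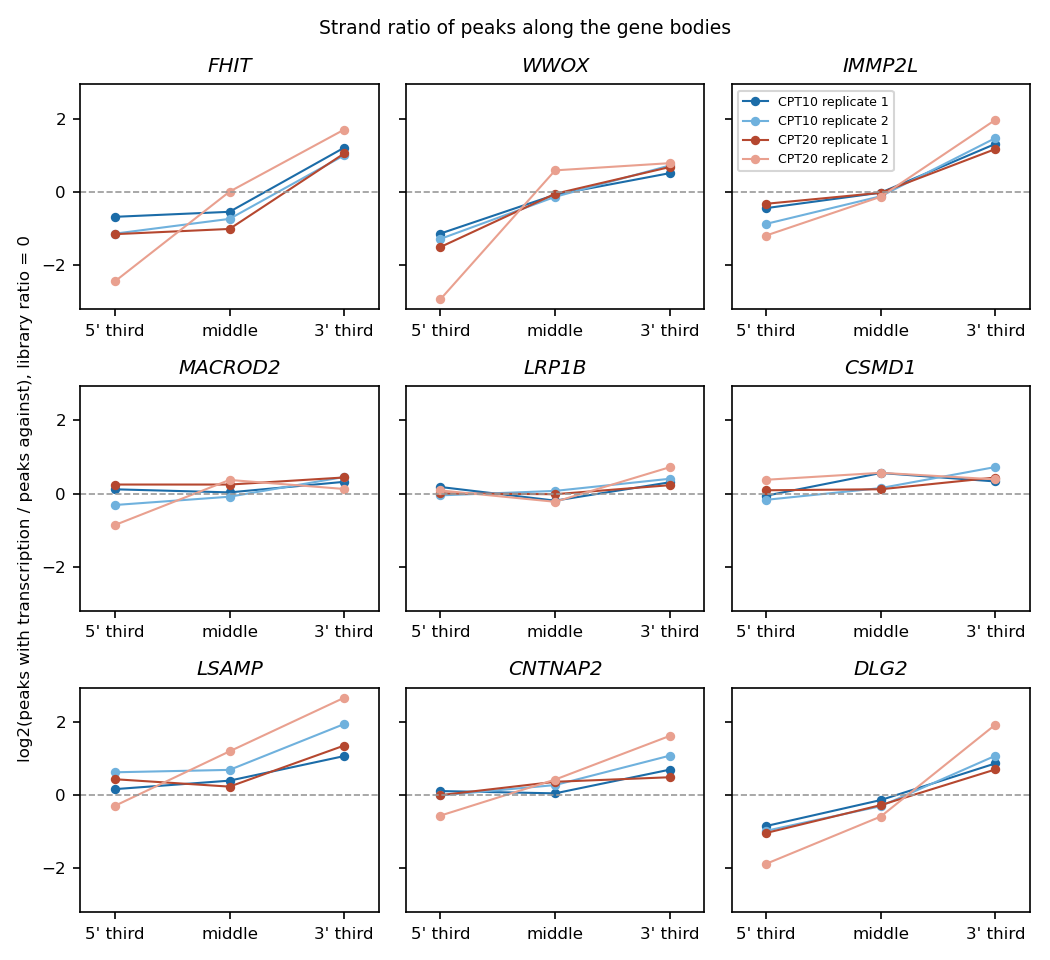
Log2 ratio of peaks running with over against transcription (y axis; 0 is the library's own ratio) in the 5′, middle and 3′ section of each gene (x axis), with 1 line per library. FHIT, WWOX, IMMP2L and DLG2 rise from below to above 0 in the 4 libraries, most steeply in CPT20 replicate 2.

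**Figure D5:**
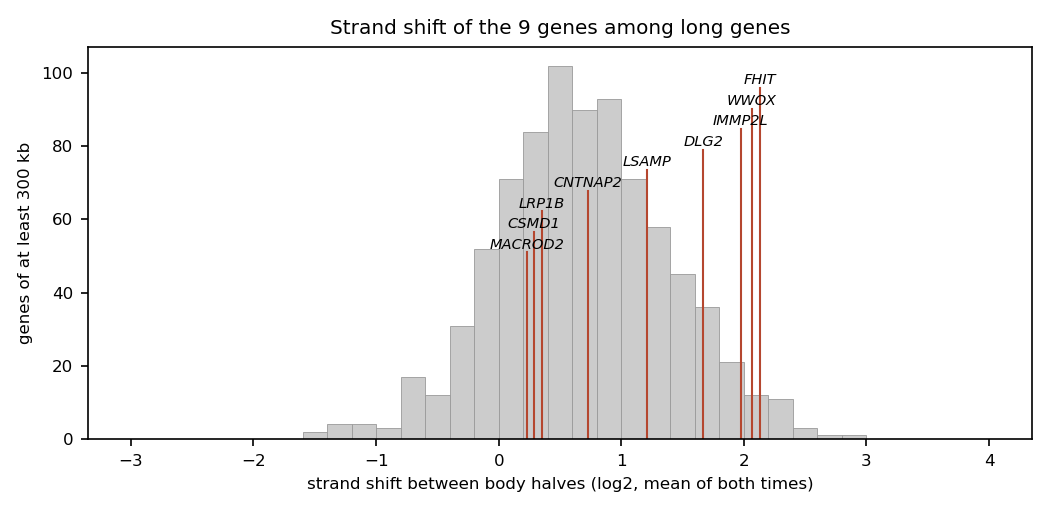
Number of genes of at least 300 kb (y axis) by strand shift (x axis, log2), with the 9 genes marked by lines. FHIT (2.13), WWOX (2.06) and IMMP2L (1.97) lie in the upper tail, and CNTNAP2, LRP1B, CSMD1 and MACROD2 in the bulk.

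Between 10 and 20 min no member changed by the tests. The log2 change of body density ran from −0.22 in WWOX to 0.01 in IMMP2L, that of the first 5 kb from −1.43 in DLG2 to 0.73 in CSMD1, and that of the strand shift from −0.17 in CSMD1 to 0.96 in FHIT. None of 3660 genes was called for any of these (0%, limma), while 96, 166 and 146 genes had an unadjusted p under 0.05, none of them a member. With 2 libraries per time, and CPT20 replicates that differed in list length, the intervals around these changes were wide. Without CPT20 replicate 1 the 20 min group is CPT20 replicate 2 alone, the library with the highest median strand shift in long genes. Calls of a change of the strand shift in that setting rest on 1 library.

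The genes most like 7 of the members in body density over the 4 libraries, by Euclidean distance of log2 values among genes of at least 300 kb, were SPOCK1 for FHIT (0.131), EPHA6 for IMMP2L (0.066), PPP2R2B for MACROD2 (0.029), ATP8A2 for LRP1B (0.090), DYNC1I1 for CSMD1 (0.064), RFX3 for LSAMP (0.080) and NCKAP5 for CNTNAP2 (0.041).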

How the data were processed

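END-seq peak lists of HCT116 cells were used as deposited. Per the study's methods, Trim Galore 0.6.5 removed adapters, Bowtie2 2.5.0 mapped the pairs on hg19, and SAMtools 1.16.1 retained proper pairs (MAPQ 30 or more) without removing duplicates. MACS2 2.2.7.1 was run by the authors separately per strand and library against the control, at q 0.05 and without local lambda. Replicates were not pooled, and spike-in scaling did not enter the lists. The deposited columns give a score (10 times the −log10 q-value), a fold ratio of the summit, the −log10 p-value and the −log10 q-value. Read depth was not used here, and the number of peaks sets the precision.

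Peaks were assigned by summit to genes of GENCODE release 44 on GRCh37. Per gene and library, log2 values with a pseudocount of 0.5 peak were tested with limma 3.58.1 (R 4.3.3), with the prior variance trended on peak number and Benjamini-Hochberg adjustment over 3660 genes at a threshold of 0.05. Density segments came from an optimal Poisson partition of 10 kb bins with a penalty of 10. Sites followed the study's pairing of closest reverse and forward peaks (bedtools 2.31.1). The libraries are described as biological replicates. The members and lists were chosen with earlier results of these data known, and the 9 genes were named by rule. Statistics were tested on simulated data. The alternatives covered peak height, list length, pseudocount, windows and libraries. The most alike genes of the other members and the sequence of 1 further site are not reported here.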

Additional observations from a re-analysis of the deposited data

How the results depend on the processing

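Over 422 alternative values of 41 results, 377 kept their direction and side of the threshold or, for counts and lengths, stayed within 1.5 times. Leaving out 1 library at a time left 1 library in a group, and changed which members passed for low body density, the strand shift and its change with time. It gave log2 densities of −0.034 to 0.15 in IMMP2L, −0.15 to 0.0067 in CNTNAP2 and −0.12 to 0.0081 in DLG2, and a time change of density of −0.18 to 0.20 in IMMP2L, which was −0.003 with equal list lengths. The first 5 kb ratio of LSAMP turned to −0.092 with equal list lengths, −0.16 over 10 kb and −0.42 from the canonical 5′ end, which lies 694 kb inside the outermost one. Clusters found at 10 min only numbered 2 at a −log10 q of at least 3, 0 at 10, 2 with equal list lengths, 26 with pairing under 500 bp and 4 in bodies only. Clusters at 20 min only numbered 7 with pairing under 500 bp and 0 at a −log10 q of at least 10 or in bodies only, and those at both times 0 in either of these last settings. A segment penalty of 5 gave 5 members with a low segment, and a penalty of 20 or the CPT10 lists alone gave 2, without FHIT. All 8 lists together or the CPT20 lists alone gave 4, DLG2 added. A local reference gave 5 members of low density, CNTNAP2 added. The causes of these changes were not tested. The methods list the libraries by experiment, 1 library of each treatment in each, but neither they nor the labels state that replicate numbers follow the experiments. Deviations of same-numbered libraries correlated at 0.366 across genes for body density and 0.080 for the strand shift. With the replicate block 5 members were called for low density, MACROD2 added, and 6 for the strand shift, and the block called none for the other tests. The site ratio within replicate numbers was −0.65 and −0.21 on the log2 scale.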
